A study of Mus musculus with 24 samples.

Results

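Ribosome biogenesis and nucleolar factors were followed across bortezomib treatment of 4 mouse myeloma lines. The set is a list of 38 genes, and its members are the array probes whose platform gene symbol is on that list. Of the 38 genes, 36 had a probe named for them and 30 had a probe above background on at least 2 arrays. Those 30 were tested among 10969 genes. Dkc1, Utp20, Utp18, Bysl, Nop16 and Wdr12 had probes that were above background on 0 of 24 arrays, and Fbl and Ddx18 had no probe named for them, so these 8 have no value here. Rrs1 was close to the limit, above background on 12 of 12 arrays of the resistant lines and on 3 of 12 arrays of the sensitive lines.

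Resistance to bortezomib, a drug that blocks the proteasome, is the label of 595sp VR and 638bm VR, and 595sp and 638bm carry the label sensitive. All 4 come from multiple myeloma of animals carrying Bcl-XL and Myc transgenes on a mixed FVBN and BL/6 background, so the untreated samples carry the Myc transgene too. RNA was taken at 0, 2, 8, 16 and 24 h of 33 nM bortezomib, on 1 array per line and time and 2 arrays at 24 h. The promoters that drive the transgenes, and whether a line is 1 clone, are not given in the sources used here. An arm is 2 lines (n = 2). The p-values rest on how far lines of the same arm differ in their changes, a spread pooled over both arms and all times and moderated over all genes. The labels do not say that arrays came from separate cultures. For 4 of the 6 arrays of 638bm VR the timepoint characteristic differs from the time in the title, and the titles were used.

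Ribosomes are made in the nucleolus, where RNA polymerase I transcribes the precursor of most ribosomal RNAs. Small nucleolar RNPs guide the chemical modification of this precursor, the small subunit processome folds and cleaves its 18S part, and a separate series of assembly factors builds the large subunit around the 28S and 5.8S parts. Many genes of this pathway are known targets of MYC, and plasma cells, which secrete much protein, are known for prominent nucleoli.

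Between 15250 and 17362 of 45281 probes were above background per array. Of 10 plasma cell markers, 7 were above background on at least 12 arrays, among them Xbp1, Irf4 and Pou2af1, while Prdm1, Tnfrsf17 and Jchain were above background on no array. Of 4 B cell markers 2 (Cd79b and Cd22, both above background on all 24 arrays), of 6 myeloid markers 0, of 4 T cell markers 1 (Cd3g), of 5 stromal and endothelial markers 1 (Pecam1) and of 1 erythroid marker 0 reached 12 arrays. Levels below are log2 intensities after background correction and quantile normalization, which equalises the arrays and so hides any change in total RNA. In such bulk RNA, fewer cells of a type and less RNA per cell cannot be told apart. Changes are log2 differences against the 0 h array of the same line, errors are standard errors of the limma fit, and a gene was called at a Benjamini-Hochberg adjusted p under 0.05 over all 10969 genes. Blocks of 6 table columns are a candidate batch. In 595sp VR the 0 h array lies in block 1 and the treated arrays in blocks 2 and 4. In 638bm the 0 and 2 h arrays lie in block 2 and later ones in blocks 3 and 4. In 638bm VR the 16 and 24 h arrays lie in block 4 and earlier ones in block 3. Where an array lies outside the block of its 0 h array, treatment and block cannot be told apart within the line.

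The promoters of these genes were examined because most members lay above their untreated level at 8 h. RefSeq promoters (build GRCm38.p6, 250 bases before to 50 after the start of the transcript) were found for 33 of the 38 members, 37 promoters in all. The letters CACGTG, the E-box that MYC and MAX bind, were searched on both strands and occurred in 6 of these 37 promoters (16.2%), against 7.15% of all 32851 promoters. They belong to Pes1, Nop2, Wdr43, Mybbp1a, Utp20 and Utp18, each with a single match. The GC box GGGCGG, read on both strands, was found in 26 of 37 member promoters (70.3%) and in 35.7% of all promoters. TGATGNAA, a sequence bound by ATF4 and CHOP dimers, occurred on either strand in 1 member promoter, that of Nop14 (2.7%), and in 3.97% of all promoters. Matches of different motifs did not share bases in these promoters, while some GGGCGG matches of Gnl3 overlap each other. Shown are Pes1 (chr11:3963725-3964024, plus strand) and Nop2 (chr6:125131633-125131932, plus strand), which hold an E-box, and Nop14 (chr5:34660099-34660398, minus strand), which holds none; among the 6 with a match, and among those without, these were picked after their values were seen. Capitals mark CACGTG, which starts at position 3 in Pes1 and at position -60 in Nop2, counted from 1 at the first base of the transcript.
Pes1: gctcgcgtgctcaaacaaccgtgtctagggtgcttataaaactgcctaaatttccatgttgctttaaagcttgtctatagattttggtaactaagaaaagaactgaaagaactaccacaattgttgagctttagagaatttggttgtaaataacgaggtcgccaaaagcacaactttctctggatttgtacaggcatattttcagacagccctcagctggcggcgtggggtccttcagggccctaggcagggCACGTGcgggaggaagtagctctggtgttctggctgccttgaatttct
Nop2: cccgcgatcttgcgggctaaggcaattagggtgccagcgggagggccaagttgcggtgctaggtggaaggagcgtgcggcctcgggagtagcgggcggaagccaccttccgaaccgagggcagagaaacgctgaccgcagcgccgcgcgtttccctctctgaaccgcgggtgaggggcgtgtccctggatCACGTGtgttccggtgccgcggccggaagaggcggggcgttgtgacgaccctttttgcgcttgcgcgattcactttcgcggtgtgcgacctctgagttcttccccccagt
Nop14: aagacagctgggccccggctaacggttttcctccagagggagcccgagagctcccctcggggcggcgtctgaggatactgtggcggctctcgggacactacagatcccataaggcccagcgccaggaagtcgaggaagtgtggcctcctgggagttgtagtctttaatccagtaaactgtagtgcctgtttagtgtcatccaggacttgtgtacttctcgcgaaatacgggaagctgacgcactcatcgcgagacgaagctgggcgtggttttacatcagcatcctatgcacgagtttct
These are descriptions of letters and not of binding. Among the members with an E-box, Pes1 fell late in treatment, while Nop2, Wdr43 and Mybbp1a passed the test at no time. Utp20 and Utp18 have no value here, and the results of the others are given below.

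Across the pathway, bortezomib was followed by a small shift upward at 8 h in every line, and by a split at 24 h. At 8 h the median change over the 30 members was 0.22 in 595sp VR, 0.27 in 638bm VR, 0.21 in 595sp and 0.38 in 638bm, while the median over all genes lay between -0.03 and 0.01. With the column block as a term, the fitted member median at 8 h was 0.30 in resistant and 0.19 in sensitive lines. Without that term it was 0.24 and 0.32. In the mean over the resistant lines 25 of 30 members lay above 0 at 8 h, and 26 of 30 did in the mean over the sensitive lines, where 49.4% and 48.6% of all genes did. Of the 30 members, 13 lay above 0 at 8 h in each of the 4 lines and 0 lay below 0 in each of them, against 15.7% and 17.8% of all genes. In these counts the brightest probe stands for its gene. Another kept probe lay below 0 at 8 h in 595sp for Wdr75 (-0.23), Ddx21 (-0.09), Mybbp1a (-0.06) and Nop2 (-0.04), and in 595sp VR for Heatr1 (-0.01). At 24 h the member median was 0.11 in 595sp VR, -0.06 in 638bm VR, 0.04 in 595sp and 0.22 in 638bm. At that time 6 members lay above 0 in all 4 lines (Nop14, Rrp12, Bop1, Rrs1, Ebna1bp2 and Mrto4) and 3 lay below 0 in all 4 (Polr1b, Pes1 and Rrp1b), against 18.8% and 13.5% of all genes. The other Ebna1bp2 probe changed by -0.54 in 595sp VR, 0.22 in 638bm VR, -0.56 in 595sp and 0.18 in 638bm, and 1 Rrp1b probe by 0.13 in 595sp VR. The 2 h values were split between lines, with a median of 0.33 in 595sp and of -0.03 in 638bm.

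**Figure D1:**
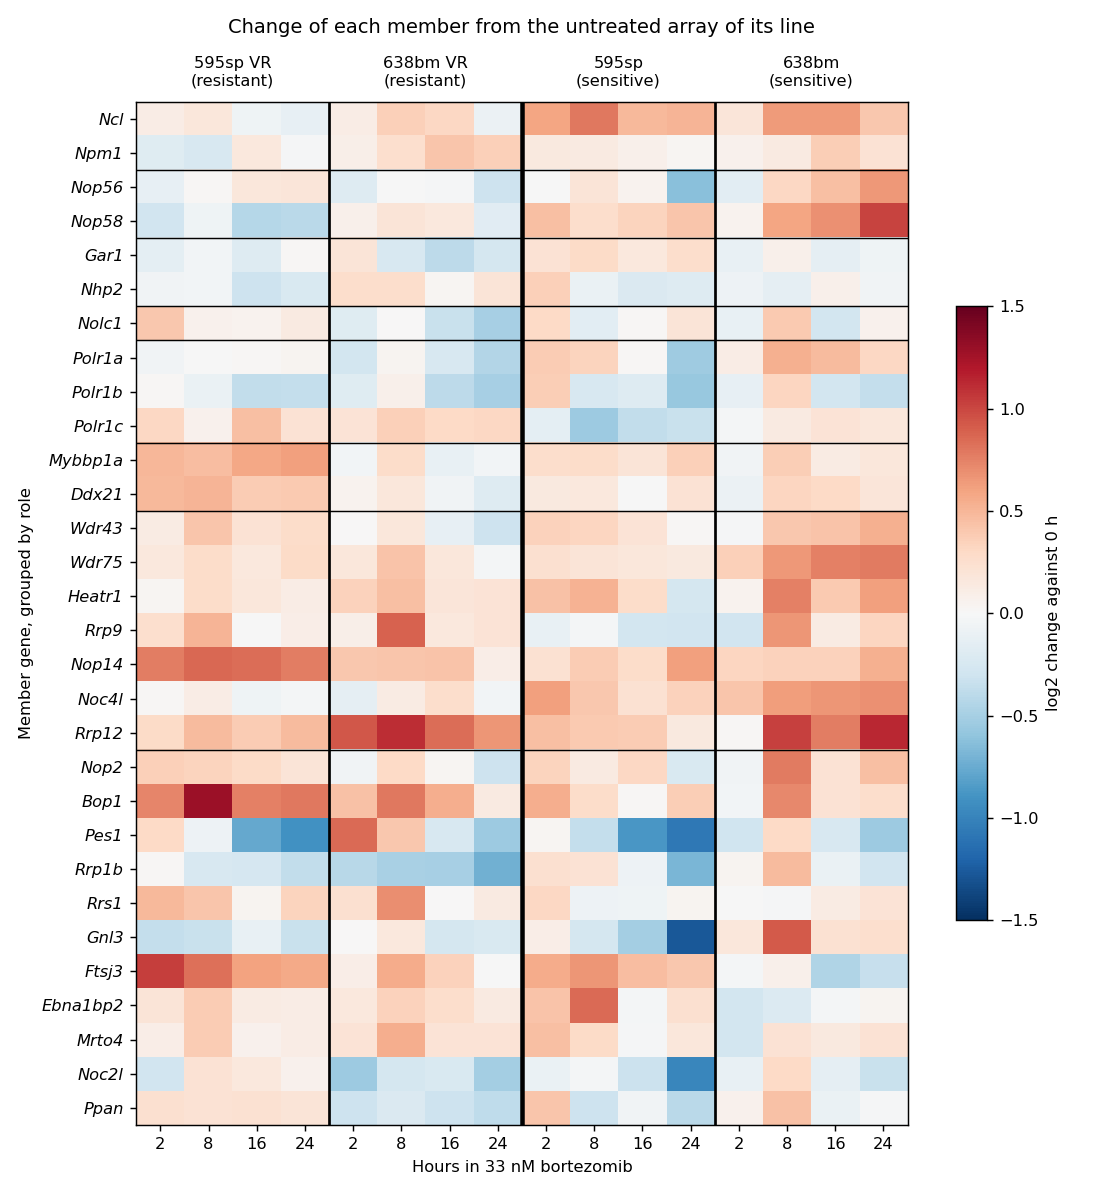
Log2 change of the 30 measured members (down the page, grouped by role, with lines between roles) against the 0 h array of the same line, at 2, 8, 16 and 24 h of 33 nM bortezomib, with resistant lines left and sensitive lines right; 24 h is the mean of 2 arrays. Nop14, Rrp12 and Bop1 are above 0 at 8 h in all 4 lines, and Pes1 and Rrp1b are below 0 at 24 h in all 4.

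Few single members passed the test in either arm alone. In the resistant lines 2 rose at 8 h (Bop1 and Nop14; 4.05% of all genes were called, 1.75% as higher) and 0 passed at 2 h (1.37%), 16 h (1.39%) or 24 h (1.51%), with 6, 5 and 5 members at an unadjusted p under 0.05. In the sensitive lines 1 rose at 8 h (Ncl; 5.42% of all genes, 2.38% higher), 1 at 16 h (Ncl; 9.28%, 4.94% higher), and at 24 h 3 rose and 2 fell (23.5% of all genes, 13.4% higher and 10.1% lower), with 0 at 2 h (0.0547%), where 2 had an unadjusted p under 0.05. As shares of the 30 members these calls were 6.67% in resistant lines at 8 h and, in sensitive lines, 3.33% at 8 h and 16.7% at 24 h, so the last of these lie below the shares of all genes. The difference of responses, resistant minus sensitive, passed for 0 members at 2, 8, 16 and 24 h by limma, where 0%, 0%, 0% and 1.26% of all genes passed, and 2, 2, 1 and 3 members had an unadjusted p under 0.05. A mean over all 4 lines in the same fit, added after the data had been seen, called 7 members at 8 h, all higher (14.3% of all genes, 6.13% higher). At 16 h it called Nop14 as higher and Pes1 as lower (11.3% of all genes, 5.76% higher and 5.5% lower), and at 24 h 2 rose and 4 fell (22%, 12.4% higher and 9.61% lower). None was called at 2 h in that mean (4.27%), where 4 members had an unadjusted p under 0.05 and Nop14 had an adjusted p of 0.05.

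**Figure D2:**
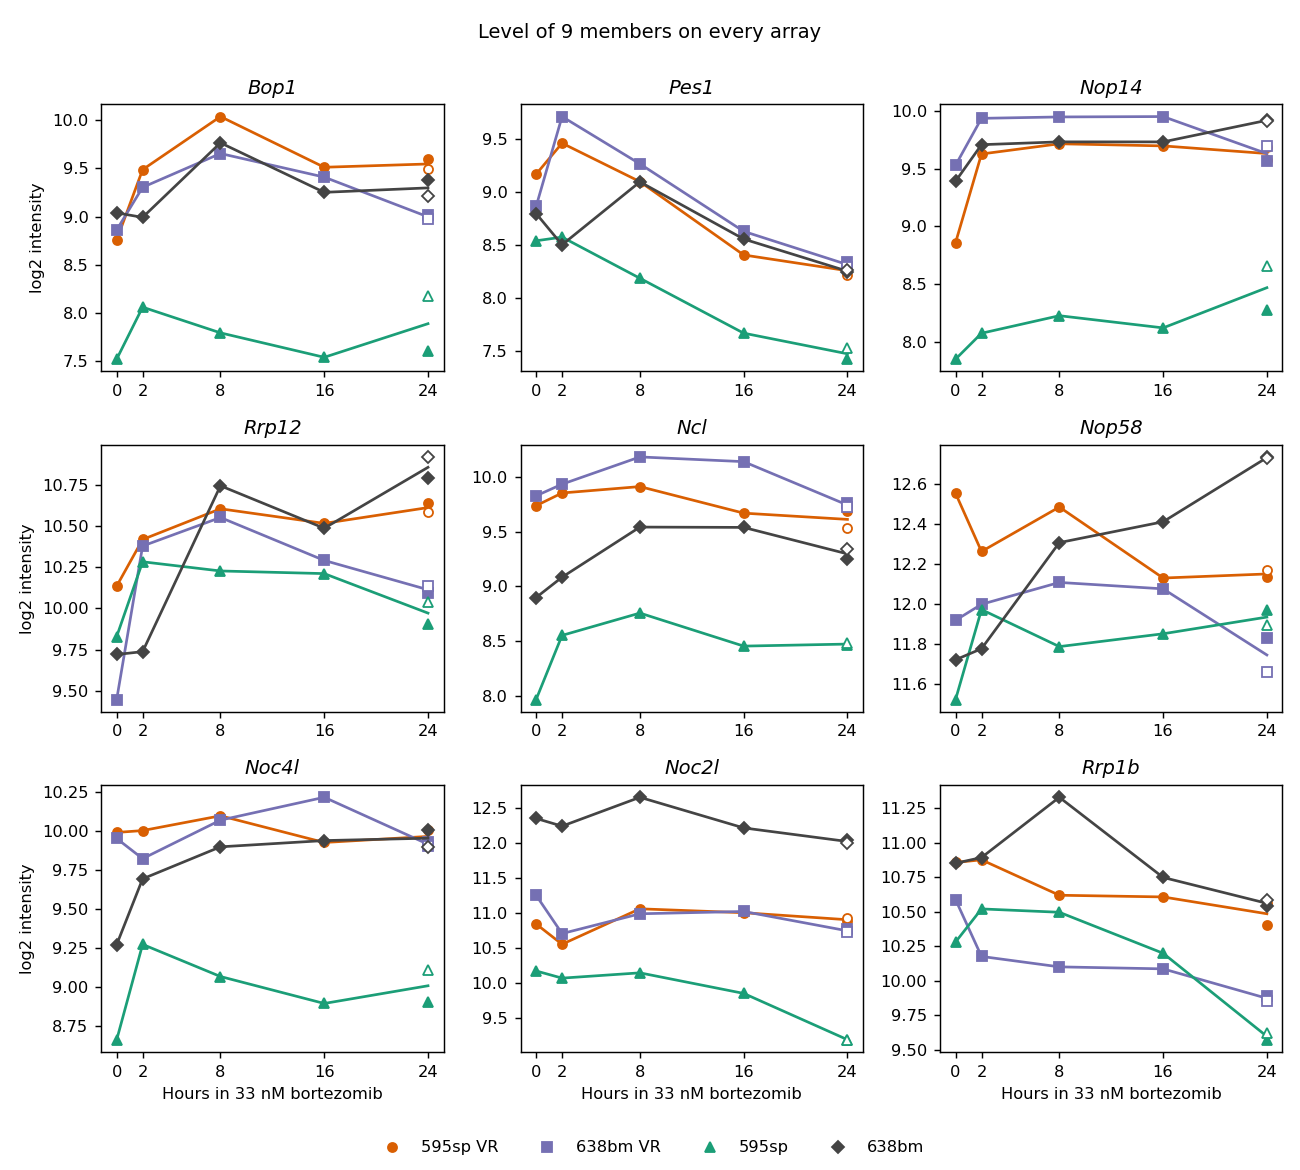
Level (log2 intensity) of 9 members against hours in 33 nM bortezomib, for 595sp VR, 638bm VR, 595sp and 638bm; each point is 1 array, open points are the second 24 h array and lines join the means. Pes1 ends lowest at 24 h in all 4 lines, and 595sp lies below the other lines for Bop1, Nop14, Ncl and Noc4l at every time.

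Among the nucleolar RNA-binding proteins, the gene of nucleolin (Ncl), a chromatin and pre-rRNA binding protein, rose in the sensitive lines at 8 and 16 h. In 595sp VR its level was 9.74, 9.85, 9.91 and 9.67 at 0, 2, 8 and 16 h and 9.69 and 9.53 on the 24 h arrays, and in 638bm VR it was 9.83, 9.93, 10.18 and 10.14, with 9.76 and 9.72 at 24 h. In 595sp the same times read 7.96, 8.55, 8.75 and 8.45, with 8.46 and 8.48 at 24 h, and in 638bm 8.90, 9.08, 9.54 and 9.54, with 9.25 and 9.34. Every treated array of a sensitive line lay above the untreated array of that line. Over all times the resistant arrays read 9.53 to 10.18 and the sensitive arrays 7.96 to 9.54. The change in resistant lines at 8 h was 0.27 ± 0.17 and did not pass (adjusted p = 0.42), while the sensitive lines gave 0.72 ± 0.17 at 8 h (1.64-fold, adjusted p = 0.0218) and 0.56 ± 0.17 at 16 h (adjusted p = 0.0448). Resistant minus sensitive, the 8 h responses differed by -0.45 ± 0.24, short of the threshold (adjusted p = 0.744). These values are those of the brighter of 2 probes. The other Ncl probe, above background on all 24 arrays, changed at 8 h by 0.70 in 595sp VR, 0.48 in 638bm VR, 0.47 in 595sp and 0.46 in 638bm. On that probe the rise was thus not larger in the sensitive lines. Npm1, the gene of nucleophosmin, a histone chaperone and shuttle of ribosomal particles, read 13.95 to 14.57 on all 24 arrays and passed nowhere.

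The core proteins of the small nucleolar RNPs gave 1 call. Nop58, with Nop56 a scaffold of the box C/D particles that guide methylation of ribosomal RNA, rose in the sensitive lines at 24 h by 0.71 ± 0.21 (1.64-fold, adjusted p = 0.0224). In the resistant lines it read 12.13 and 12.17 on the 24 h arrays of 595sp VR, against 12.55 untreated, and 11.83 and 11.66 in 638bm VR, against 11.92 untreated. In the sensitive lines it read 11.97 and 11.90 on the 24 h arrays of 595sp, against 11.52 untreated, and 12.73 on both 24 h arrays of 638bm, against 11.72 untreated. The 24 h and untreated arrays thus did not overlap within any line, and the sign differed between the arms. That difference, -1.0 ± 0.30 on the log2 scale, was the member difference with the smallest p at 24 h and did not pass over all genes (adjusted p = 0.101). Nop56 passed nowhere and differed in sign between the 2 sensitive lines at 24 h, with -0.63 in 595sp and 0.64 in 638bm.

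Members of the box H/ACA particles, which guide conversion of uridine to pseudouridine, passed in no comparison. Gar1 changed by -0.29 to 0.18 and Nhp2 by -0.14 to 0.14 over the 8 comparisons with 0 h in the arms. Nop10, the remaining core protein beside Dkc1, is not on the list of 38 and belonged to a list of 135 other ribosome biogenesis genes. In resistant lines the change of Nop10 at 24 h was -0.24 ± 0.15 (adjusted p = 0.518), while in sensitive lines it fell by 0.72 at 8 h, by 0.89 at 16 h and by 1.10 ± 0.15 at 24 h (adjusted p = 0.000154). It is named here after its values were seen, because it is the partner of Gar1 and Nhp2. The difference of its 24 h responses, 0.86 ± 0.21, did not pass (adjusted p = 0.0607). Nolc1, a chaperone of both kinds of particle, read 5.52 to 6.90 and passed nowhere.

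Of the RNA polymerase I genes, Polr1b, the second largest subunit, was lower at 24 h over all 4 lines by 0.44 ± 0.14 (adjusted p = 0.0366), and passed in neither arm alone (-0.42 in resistant, adjusted p = 0.365, and -0.46 in sensitive lines, adjusted p = 0.114). On the 24 h arrays it read 9.69 and 9.42 in 595sp VR against 9.91 at 0 h, 9.12 and 9.08 in 638bm VR against 9.59, 8.68 and 8.50 in 595sp against 9.16, and 9.39 and 9.27 in 638bm against 9.68. Each 24 h array thus lay below the untreated array of its line. Polr1c, a subunit shared with RNA polymerase III, changed by 0.26 in resistant and -0.08 in sensitive lines at 24 h and passed nowhere. Of the nucleolar transcription regulators, the gene of the helicase Ddx21 and Mybbp1a, a nucleolar MYB-binding protein, both lay above 0 in all 4 lines at 8 h without passing (adjusted p = 0.133 for Ddx21 and 0.0904 for Mybbp1a over all 4 lines).

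Polr1a, the largest subunit, depended on the probe. The brightest of its 5 probes changed by -0.20 in resistant and -0.11 in sensitive lines at 24 h. Another probe of Polr1a, above background on all 24 arrays, changed at 24 h by 0.18 in 595sp VR, -0.13 in 638bm VR, -2.22 in 595sp and -1.08 in 638bm. In a fit of all 17969 probes taken singly, run after these values were seen, that probe fell by 1.65 ± 0.33 in sensitive lines (adjusted p = 0.00241; 21.2% of all probes were called), while the other 4 ranged from -0.20 to 0.00 and did not pass. Ddx21 had a second probe with -0.57 ± 0.17 in sensitive lines at 24 h (adjusted p = 0.0295), where the brightest gave 0.20 ± 0.18. Which transcripts the probes read was not given in the sources used here, so no single level for these genes follows at 24 h. Over all 13 members with several probes, the probes shared 1 sign in 7 members in resistant and 8 in sensitive lines at 24 h, and in 11 and 10 at 8 h.

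**Figure D3:**
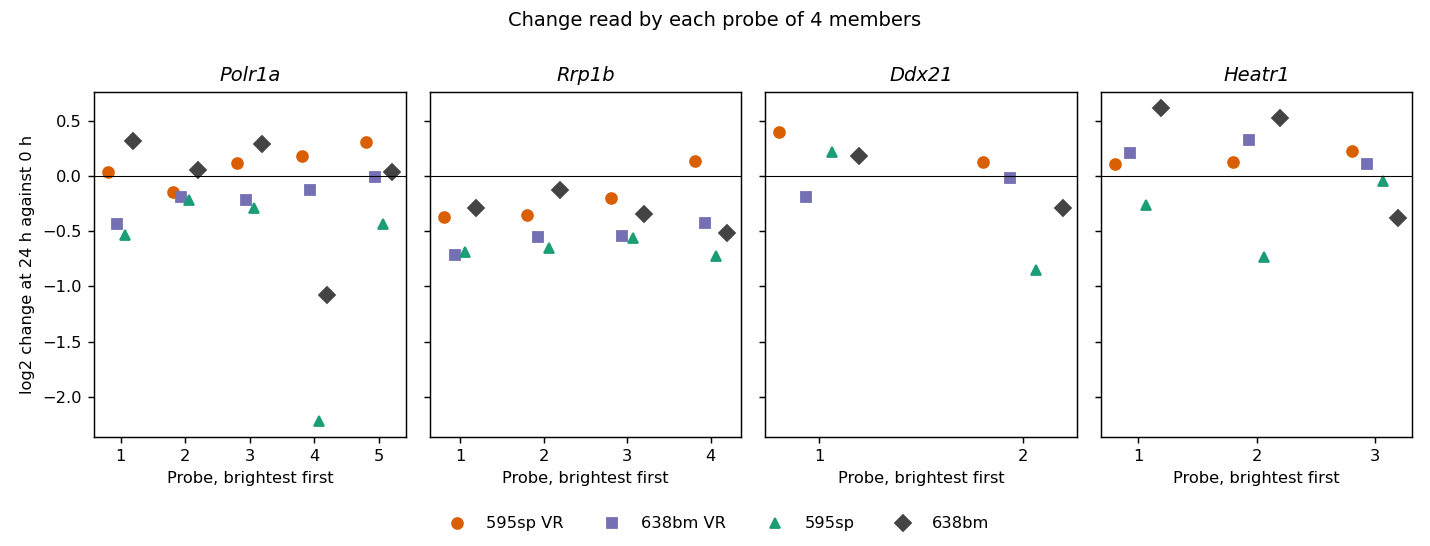
Log2 change at 24 h against 0 h read by each probe of Polr1a, Rrp1b, Ddx21 and Heatr1 (probes ordered by mean level, brightest first), with 1 point per line. The fourth Polr1a probe stands at -2.22 in 595sp and -1.08 in 638bm, while the other Polr1a probes lie between -0.54 and 0.31; probes of Rrp1b lie below 0 with 1 exception in 595sp VR.

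Factors of the small subunit processome lay above their untreated level at 8 and 24 h in the mean over 4 lines, though not each of them in each line. All 7 measured members (Wdr43, Wdr75, Heatr1, Rrp9, Nop14, Noc4l and Rrp12) lay above 0 in the mean over 4 lines at 8 h, with a median of 0.50. At that time 49.4% of all genes lay above 0. Of the 7 members 4 passed as higher (57.1%), against 14.3% of all genes called and 6.13% called higher. At 24 h all 7 again lay above 0 in the mean over 4 lines, with a median of 0.24, and Nop14 and Rrp12 passed. Of all genes 53.7% lay above 0 then. In the resistant lines alone 5 of the 7 did so at 24 h, and in the sensitive lines all 7. Among the 11 measured large subunit members, 10 lay above 0 at 8 h with 2 calls (18.2%), and at 24 h 6 lay above 0 and 5 below, with 0 higher and 3 lower calls. The calls at 24 h were 28.6% of the small and 27.3% of the large subunit members. Of all genes 22% were called then, 12.4% higher and 9.61% lower. No test compared these groups.

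Nop14, a scaffold of the processome, was called in the most comparisons. In 595sp VR it read 8.86, 9.63, 9.72 and 9.70 at 0, 2, 8 and 16 h, with 9.69 and 9.58 at 24 h, and in 638bm VR 9.53, 9.94, 9.95 and 9.95, with 9.57 and 9.69. In 595sp the values were 7.85, 8.07, 8.23 and 8.12, with 8.28 and 8.66 at 24 h, and in 638bm 9.39, 9.71, 9.73 and 9.73, with 9.93 and 9.91. Every treated array exceeded the untreated array of its line. The change was 0.64 ± 0.17 in resistant lines at 8 h (1.56-fold, adjusted p = 0.0416) and 0.57 ± 0.17 in sensitive lines at 24 h (1.49-fold, adjusted p = 0.0204), and over all 4 lines it passed at 8, 16 and 24 h with 0.50, 0.47 and 0.51. Noc4l, whose yeast counterpart forms a complex with Nop14, had a change of -0.03 ± 0.18 at 24 h in resistant lines, where the untreated level was 9.99 and 9.95. In sensitive lines Noc4l rose by 0.51 ± 0.18 at 24 h (adjusted p = 0.0462), to 8.91 and 9.11 in 595sp against 8.66 untreated and to 10.01 and 9.90 in 638bm against 9.27 untreated. The difference of -0.55 ± 0.25 did not pass (adjusted p = 0.282).

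Rrp12, an export factor of the small subunit precursor, passed only in the mean over 4 lines, by 0.75 ± 0.19 at 8 h (1.68-fold, adjusted p = 0.0141) and 0.60 ± 0.19 at 24 h (adjusted p = 0.0286). At 8 h it read 10.60 in 595sp VR against 10.14 at 0 h, 10.55 in 638bm VR against 9.45, 10.23 in 595sp against 9.83, and 10.74 in 638bm against 9.72. The response was uneven at 24 h, with 0.14 in 595sp and 1.14 in 638bm. Heatr1, a processome subunit that also acts in RNA polymerase I transcription, and Rrp9, a protein of the U3 particle, rose over all 4 lines at 8 h by 0.50 ± 0.16 (adjusted p = 0.0416) and 0.51 ± 0.15 (adjusted p = 0.0289). Rrp9 was uneven, at -0.03 in 595sp and 0.89 in 638bm VR. Wdr75 and Wdr43, members of the processome part that binds the nascent precursor first, lay above 0 in all 4 lines at 8 h without passing (adjusted p = 0.0565 for Wdr75 and 0.129 for Wdr43).

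In the large subunit pathway, the partners Bop1 and Pes1, which with Wdr12 form the PeBoW complex needed for maturation of the 28S and 5.8S RNAs, had changes of opposite sign at 24 h in each of the 4 lines, Bop1 above 0 without passing and Pes1 below. At 8 h both lay above 0 in 638bm VR and 638bm. Bop1 rose in resistant lines at 8 h by 1.04 ± 0.22 (2.05-fold, adjusted p = 0.0146). Over all 4 lines it rose at 8 h by 0.77 ± 0.15 (adjusted p = 0.00384), with 0.27 in 595sp and 0.73 in 638bm. It read 8.76, 9.49, 10.04 and 9.51 in 595sp VR at 0, 2, 8 and 16 h, with 9.60 and 9.49 at 24 h, and 8.86, 9.30, 9.65 and 9.41 in 638bm VR, with 9.02 and 8.98 at 24 h. In 595sp it read 7.52, 8.06, 7.79 and 7.54, with 7.60 and 8.18 at 24 h, and in 638bm 9.04, 8.99, 9.76 and 9.25, with 9.38 and 9.21. The resistant lines and 638bm peaked at 8 h, and 595sp stayed more than a log2 unit below the other lines at 0 h. The sensitive change at 8 h was 0.50 ± 0.22 (adjusted p = 0.191), and the difference between arms, 0.54 ± 0.30, did not pass (adjusted p = 0.768).

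Pes1 fell late in treatment, in the sensitive lines and in the mean over all 4. Its level in 595sp VR was 9.17, 9.46, 9.10 and 8.40 at 0, 2, 8 and 16 h and 8.29 and 8.22 at 24 h, and in 638bm VR 8.86, 9.71, 9.26 and 8.63, with 8.33 and 8.29. In 595sp it was 8.54, 8.57, 8.18 and 7.66, with 7.42 and 7.52 at 24 h, and in 638bm 8.80, 8.50, 9.09 and 8.55, with 8.24 and 8.26. Both 24 h arrays of every line lay below all earlier arrays of that line. In resistant lines the 24 h change was -0.73 ± 0.22, which did not pass (adjusted p = 0.127), 595sp VR giving -0.91 and 638bm VR giving -0.55. The sensitive lines gave -0.81 ± 0.22 (0.572-fold, adjusted p = 0.017). Over all 4 lines Pes1 fell by 0.53 at 16 h (adjusted p = 0.0423) and by 0.77 ± 0.16 at 24 h (adjusted p = 0.00303), the largest fall of a member in that comparison. At 2 h the resistant lines read 0.29 and 0.85 above 0 h and the sensitive lines 0.03 above and 0.30 below, and none of this passed.

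Noc2l, a nucleolar protein whose yeast counterpart works with Noc3 on the large subunit precursor, fell in the sensitive lines at 24 h by 0.66 ± 0.19 (adjusted p = 0.0193). It read 9.19 on both 24 h arrays of 595sp against 10.17 untreated, and 12.05 and 12 in 638bm against 12.36 untreated. The fall was thus larger in 595sp than in 638bm, and the level of the 2 sensitive lines differed by over 2 log2 units at 0 h. Of the resistant lines, 638bm VR gave a 24 h change of -0.51 and 595sp VR one of 0.06. Noc2l did not pass in that arm, but was called as lower over all 4 lines, by 0.44 ± 0.13 (adjusted p = 0.0263). Noc3l, from the list of other genes, rose in the sensitive lines at 24 h by 0.69 ± 0.21 (adjusted p = 0.0259). Its change was 0.25 in 595sp and 1.12 in 638bm. Rrp1b, known to associate with the large subunit precursor, fell over all 4 lines at 24 h by 0.52 ± 0.12 (adjusted p = 0.00729), with -0.54 in resistant (adjusted p = 0.142) and -0.49 in sensitive lines (adjusted p = 0.0517). All 4 Rrp1b probes gave a mean change below 0 at 24 h in both arms.

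Ftsj3, whose yeast counterpart Spb1 is a methyltransferase of the large subunit RNA, rose over all 4 lines at 8 h by 0.53 ± 0.16 (adjusted p = 0.0366), with 0.82 in 595sp VR and 0.07 in 638bm. Nop2, which methylates a cytosine of 28S RNA, lay above 0 in all 4 lines at 8 h (0.38 ± 0.16 over them, adjusted p = 0.132), and so did Mrto4, a factor of the ribosomal stalk (0.36 ± 0.13, adjusted p = 0.0832). Gnl3, the gene of nucleostemin, differed between the sensitive lines, with -1.27 in 595sp and 0.25 in 638bm at 24 h, and passed nowhere. Ebna1bp2 and Ppan, both large subunit assembly factors, passed nowhere and ranged over the arms from -0.03 to 0.36 and from -0.21 to 0.24. Rrs1, which brings the 5S particle to the precursor, changed by 0.56 ± 0.17 in resistant lines at 8 h (adjusted p = 0.0867) and was not well above background on most sensitive arrays.

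Many of these calls changed when a line was left out, and so did the share of all genes called. The 2 resistant calls at 8 h came to 4 without 595sp and 4 without 638bm (8.44% of all genes each, against 4.05% in the main fit). They came to 0 with the times of the timepoint characteristic (1.66%). Without 595sp VR or 638bm VR, which leaves 1 resistant line, fewer members and fewer of all genes passed. The 5 sensitive calls at 24 h came to 0 without 595sp VR or without 638bm VR (13.9% of all genes each, against 23.5%). Neither resistant line enters the change itself, but the spread is pooled over lines. Without 595sp or 638bm, which leaves 1 sensitive line, fewer members and fewer of all genes passed at 24 h. The Ncl call at 8 h was lost without 595sp VR or 638bm VR (1.44% of all genes each, against 5.42%), and that at 16 h was lost there too (2.81% each, against 9.28%). With 1 sensitive line left, the 8 h call was also lost without 595sp, and the 16 h call without either 595sp or 638bm. In the mean over lines at 8, 16 and 24 h, fewer members and fewer of all genes passed without 595sp VR or without 638bm VR, each of which leaves 1 resistant line.

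In untreated cells most members lay higher in the resistant than in the sensitive lines when the pairs were averaged, though not in the 638bm pair alone, and none met the call rule. The median difference over the members was 0.54 in the 595sp pair and -0.06 in the 638bm pair, where all genes had 0.08 and 0.07. In both pairs 12 of 30 members (40%) lay higher and 1 lower, against 33.6% of all genes higher in both. The fitted median was -0.10 without 595sp VR, -0.09 without 595sp, 0.61 without 638bm VR and 0.55 without 638bm. That rule asked for an adjusted p under 0.05 and for a difference of 1 log2 unit or more, in 1 direction, in both pairs of lines, which 2.67% of all genes met, and 5 members had an unadjusted p under 0.05. These values are those of the brightest probe of each gene. In the fit of all 17969 probes taken singly, 1 of 52 member probes met the rule, as lower in resistant lines, and 3.26% of all probes did. In the mean of the pairs 25 of the 30 members lay above 0, with a median of 0.22, where 57.5% of all genes did with a median of 0.09. Ncl came nearest, at 9.74 in 595sp VR against 7.96 in 595sp and 9.83 in 638bm VR against 8.90 in 638bm. Its difference of 1.35 ± 0.26 had an adjusted p of 0.0138, and the 638bm pair, at 0.93, missed the 1 unit. Noc4l differed by 1.0 ± 0.31 (1.33 and 0.68 in the pairs, adjusted p = 0.0788) and Nolc1 by 0.74 ± 0.23 (adjusted p = 0.0873).

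Several of the remaining differences belong to 1 pair. Mrto4 read 10.31 in 595sp VR against 8.40 in 595sp, and 10.03 in 638bm VR against 10.44 in 638bm. Bop1 differed by 1.24 in the 595sp pair and -0.18 in the 638bm pair. The 595sp line was the low one in both cases, and its first arrays, with untreated 595sp VR, lie in a block of table columns whose background is lower than elsewhere (log2 mode 5.45 to 5.54, against 5.86 to 6.19 in the others). The second 24 h array of 595sp, in another block, read 8.54 for Mrto4 and 8.18 for Bop1, where the first read 8.59 and 7.60. All 4 values lay below every array of the other lines. Both untreated arrays of the 595sp pair lie in block 1, so that pair difference is not one between blocks. The untreated arrays of 638bm and 638bm VR lie in blocks 2 and 3. Whether the block plays a part in the 638bm pair, or in the low level of 595sp against the 638bm lines, was not tested. Rrs1, not well above background in untreated sensitive lines, read 5.73 in untreated resistant lines against a measured mean of 5.21, which did not pass (adjusted p = 0.109). Set against the lowest level above background on the sensitive arrays, the measured ratio was 1.28-fold, with no allowance for measurement error.

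**Figure D4:**
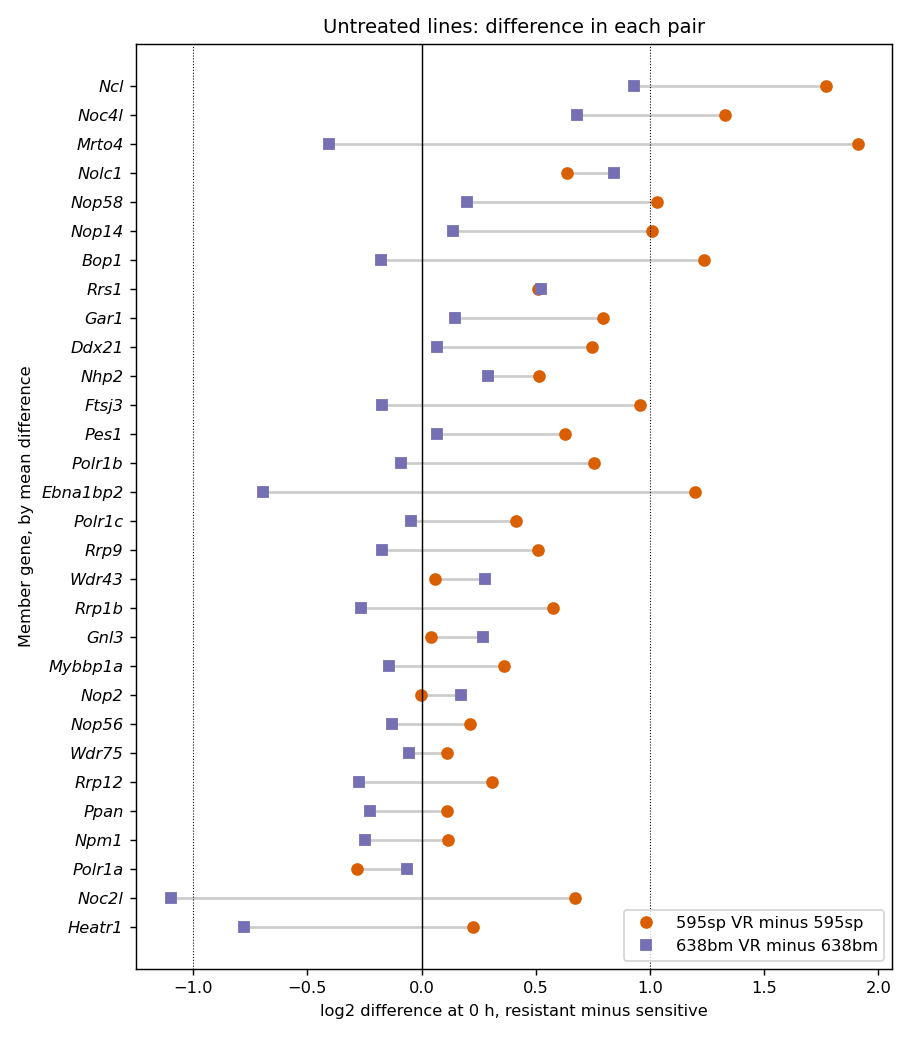
Log2 difference at 0 h, resistant minus sensitive, for each measured member (down the page, by mean difference), with circles for the 595sp pair and squares for the 638bm pair; dotted lines mark 1 log2 unit. Ncl, Noc4l and Nolc1 lie to the right of 0 in both pairs, while Mrto4 and Bop1 do so in the 595sp pair alone.

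The wider pathway was read from 135 other ribosome biogenesis genes and 53 cytosolic ribosomal protein genes, lists put together with earlier results of these data known. At 8 h 4 of the 135 rose and 0 fell in resistant lines (2.96%, against 4.05% of all genes), and 8 rose and 1 fell in sensitive lines (6.67%, against 5.42%). At 24 h 0 passed in resistant lines by limma, with 14 at an unadjusted p under 0.05, while in sensitive lines 44 rose and 4 fell, 35.6% against 23.5% of all genes. The median change at 24 h was 0.10 in resistant and 0.36 in sensitive lines, against 0.01 and 0.06 over all genes, and the difference of responses passed for 0 of the 135 (35 with an unadjusted p under 0.05). The 30 members, by contrast, had medians of -0.02 and 0.12 at that time. Of the ribosomal protein genes 1 fell at 24 h in sensitive lines (1.89%, against 23.5% of all genes) and 1 over all 4 lines (against 22%), with no other call, and their median change lay between -0.13 and 0.07 over all lines and times.

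The genes of that list with the largest called changes cover several steps. In resistant lines at 8 h they were Dis3, a nuclease of the exosome (0.98), Nmd3, an export adaptor of the large subunit (0.85), and Pno1, a small subunit factor (0.84). In sensitive lines at 8 h they were Mdn1, the large ATPase of large subunit maturation (1.25), Taf1a, a subunit of the RNA polymerase I selectivity factor (1.13), and Noc3l (0.88). At 24 h in sensitive lines they were Pinx1, a nucleolar telomerase inhibitor (1.62), Taf1d, another subunit of the selectivity factor (1.30), and Mphosph10, a U3 particle protein, which fell by 1.47 and was then above background on 2 of 4 arrays. In untreated cells Tma16, Pak1ip1 and Mphosph10 were lower in resistant lines by 1.80, 1.67 and 1.58, where Tma16 and Mphosph10 were above background on 1 of 2 arrays. Of the polymerase I factors, Ubtf, which binds the ribosomal DNA promoter, fell by 0.82 in sensitive lines at 16 h (adjusted p = 0.0427), and Rrn3 and Tcof1 passed in neither arm.

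**Figure D5:**
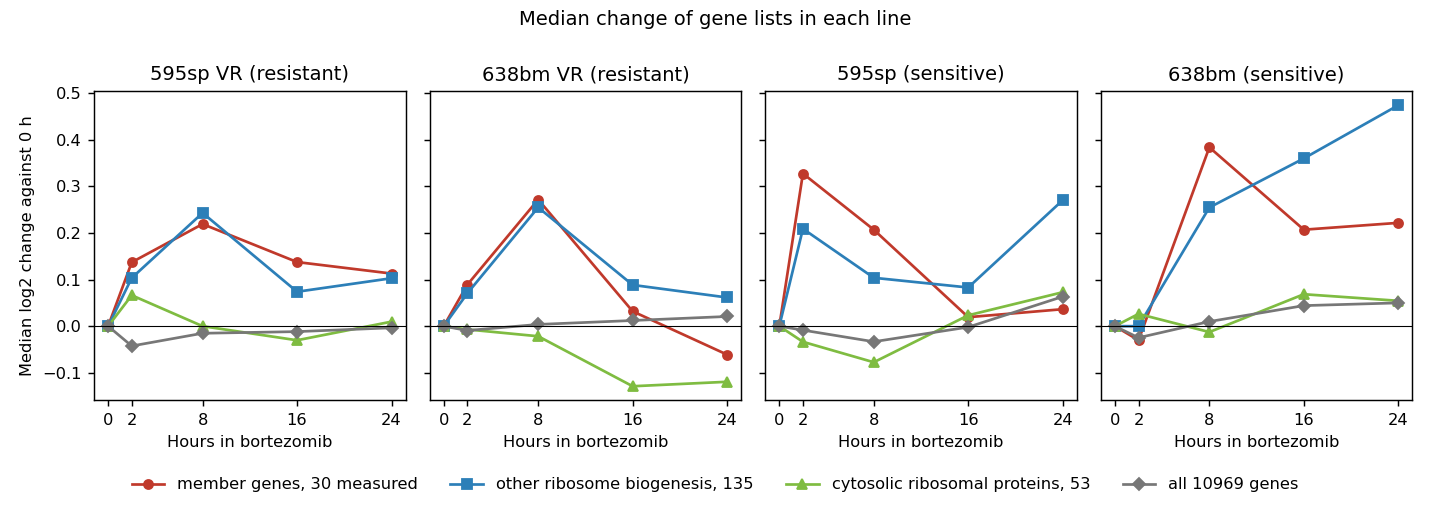
Median log2 change against 0 h of the 30 measured members, 135 other ribosome biogenesis genes, 53 cytosolic ribosomal protein genes and all 10969 genes, against hours in 33 nM bortezomib, in each line (resistant left, sensitive right). Members and other ribosome biogenesis genes lie above the other lists at 8 h in each line, and at 24 h the other ribosome biogenesis genes reach 0.27 in 595sp and 0.47 in 638bm.

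Of 11 measured genes of MYC's network, 1 was called at 8 h over all 4 lines, 1 at 24 h in sensitive lines and over all 4 lines, and 1 in untreated cells. Each call is 9.09% of these genes. Of all genes, 14.3% were called at 8 h over all 4 lines, and 2.67% in untreated cells. At 24 h 23.5% of all genes were called in sensitive lines and 22% over all 4 lines. The calls under treatment thus lie below the shares of all genes. Myc, whose probe was not checked for reading the transgene, passed nowhere, and at 24 h changed by -0.19 in 595sp VR, -0.28 in 638bm VR, -0.71 in 595sp and 0.95 in 638bm. Max, the partner of MYC, was higher in untreated resistant lines by 1.20 ± 0.25 (adjusted p = 0.0186; 1.09 and 1.32 in the pairs), and Mxd1, a MAX partner that opposes MYC, fell over all 4 lines at 8 h by 0.48 ± 0.14 (adjusted p = 0.0301). Mlxip, a partner of the MAX-like protein MLX, named after its values were seen, changed at 24 h by -0.45 ± 0.22 in resistant lines (adjusted p = 0.374) and by -0.69 ± 0.22 in sensitive lines (adjusted p = 0.0308), and fell over all 4 lines by 0.57 ± 0.15 (adjusted p = 0.015). Mxd3, Mxd4, Mxi1, Mnt, Mga, Mlx and Mlxipl passed nowhere.

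Likeness among the members was described over the 20 values left after averaging the 24 h arrays and centring each line, values that share lines, times and arrays. The median correlation over the 435 pairs of members was 0.29, against 0.01 for pairs of all genes. Nop2 followed the mean of the other members most closely (r = 0.89), then Heatr1 (0.85) and Wdr43 (0.83), while Gar1 and Npm1 did least (0.09 each). Wdr75 and Rrp12, both of the small subunit branch, were the most alike pair (0.85), and Gar1 and Polr1c the least (-0.57). Nop14, although it passed most often, followed the others weakly (0.32), as did Pes1 (0.38).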

How the data were processed

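Expression in 24 samples of 4 mouse myeloma lines was measured on 1-colour Illumina bead arrays from biotin-labelled total RNA, per the labels' protocols. The deposited table holds, per the file headers, 1 average intensity per probe and array for 45281 probes (31.94 to 38749.43), not normalized. The authors' processed intensity values, with a median of 64.4 on each array, served as an alternative. Their making was not given in the sources used here.

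The members and lists were chosen with earlier results of these data known. All members are described. Full statistics go to the 6 called members with the largest change per comparison or, with none called, to the 3 with the smallest p. Of other ribosome biogenesis genes the 3 largest calls are named, and Myc, Max, Mxd1, Mxi1, Mnt, Mga, Ubtf, Rrn3 and Tcof1 always.

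Background was corrected with normexp on the probe signals (offset 16, which shrinks changes of dim genes), since the table used holds no control probes. Quantile normalization and log2 followed (limma 3.58.1, R 4.3.3). A probe was above background where its log2 signal exceeded the array's mode by 2.326 SDs mirrored below it. Kept were probes that passed this limit on 2 or more arrays (21543, of them 17969 with 1 platform symbol), and the brightest stood for its gene. Of all probes 34885 had 1 symbol, 18 several and 10378 none. A probe's level was never set against another probe's.

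The 24 h arrays of a line were averaged. Changes were tested with limma in 1 model of cell line and arm by time (8 residual, 7.69 prior degrees of freedom), with adjusted p over 10969 genes. The line is a block because the same line runs through all times: differences between the lines of an arm correlated across genes between times at 0.824 to 0.926 in resistant and 0.772 to 0.908 in sensitive lines. Untreated lines were compared in a model of origin and arm by time (9 residual, 2.93 prior degrees of freedom), whose errors rest mostly on other times of the same lines and are too small. The number of arrays limits the precision. The fits were tested on simulated data. Alternatives covered background, scaling, probe choice, filter, the 24 h arrays, the line block, times of 638bm VR, blocks of 6 table columns as a candidate batch and each line left out.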

Additional observations from a re-analysis of the deposited data

How the results depend on the processing

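No change of a named member turned its sign under the alternatives. Of their values under alternatives, 751 kept their side of the threshold, 133 lost it and 17 gained it. Without the line as a block (no pairing by cell line), the counts of members called at 8 h in resistant lines, at 8, 16 and 24 h in sensitive lines and at 8, 16 and 24 h over all 4 lines were each 0, and no other call changed. In these comparisons 0% to 1.37% of all genes were then called. Median scaling gave 4 at 8 h and 1 at 16 h in resistant lines (4.52% and 2.47% of all genes) and 0 at 8 h and 0 at 16 h in sensitive lines (5.92% and 7.62%). It put the median of all genes at 0.11 in resistant lines at 16 h, where members had 0.23, and at 0.12, 0.14 and 0.15 in the differences at 2, 8 and 16 h, where members had 0.17, 0.25 and 0.20. Without a filter on dim probes, 2 members passed at 8 h and 0 at 16 h in sensitive lines (2.88% and 4.89% of all genes). Either 24 h array alone gave 1 at 8 h in resistant lines, and the mean of a gene's probes and the second 24 h array alone each gave 0 at 16 h in sensitive lines. At 16 h in resistant lines 1 passed with no background correction, with an offset of 50 and in the authors' processed values, and so did 1 at 2 h over all 4 lines, where a stricter filter, the mean of probes and the column block also gave 1. The column block gave 1 at 2 h in resistant lines. Times from the characteristic gave 0 at 8 h in resistant lines and 1 at 16 h over all 4 lines. With the 4 unclear arrays of 638bm VR left out, chosen after seeing the data, the counts were 0 at 8 h in resistant lines, 0, 0 and 1 at 8, 16 and 24 h in sensitive lines and 0, 0 and 3 at 8, 16 and 24 h over all 4 lines. Leaving out 1 line gave 0 to 4 at 8 h and 0 to 1 at 24 h in resistant lines, 0 to 1 at 8 h, 0 at 16 h and 0 to 4 at 24 h in sensitive lines, 0 to 8, 0 to 2 and 0 to 7 over all 4 lines, 0 to 1 for the difference at 24 h and 1 to 7 for untreated lines, where 1 pair then stands alone. The cause was not tested, except that fewer arrays leave fewer degrees of freedom. The share of all genes called also changed between these settings. Members near background (Rrs1, Nolc1) have compressed changes.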
